A study of Mus musculus with 4 samples.

Results

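The cells described here are subepithelial fibroblasts of the mouse small intestine on the side marked by Wif1. They were chosen by a fixed set of genes among single cells captured with 10X Genomics droplets. A cell was a member when it had UMIs of Sox6, Bmp7 and Pdgfra, had UMIs of at least 3 of the 6 genes Wif1, Pla1a, Col23a1, Trp53i11, Il34 and Mgarp, and had more of these 6 than of Slitrk6, Col6a4, Bdkrb2, Spon2, Ccdc3 and Ncam1. A UMI is a molecular tag that counts 1 captured transcript. This rule found 1205 cells of 16891 10X cells, and of 17630 cells in the whole series. The members were thus selected on measured values, and the 15 genes of the rule are given below as a description, without a test. The genes of the rule had been picked from clusters of these same cells, so the levels of other genes in them are not independent evidence that the cells form a type.

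By the labels, all cells came from wild type C57Bl/6 mice, adult males of 8 weeks, and no treatment is given. The study's general methods name cohorts of both sexes. The small intestine was digested with Liberase TL, and live cells that were CD45-, EpCAM-, CD31- and gp38+ (podoplanin, a surface protein of many fibroblasts) were sorted. The 4 samples are 2 10X libraries, used here, and 2 Smartseq2 plates, not used here. The number of mice per library is not given, and the p-values below measure only the spread between 2 libraries, which may be technical. The limma fit takes part of that spread from all tested genes, so a p-value does not rest on the SD printed beside it alone.

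Subepithelial fibroblasts lie directly under the epithelium and are known for high levels of the PDGF receptor alpha. Those of the villus are a source of BMP ligands, which favour differentiation of the epithelium, while fibroblasts around the crypt supply BMP antagonists such as gremlin and Wnt agonists such as R-spondins, which favour its stem cells. WIF1, the protein of Wif1, is a secreted inhibitor that binds Wnt ligands outside the cell.

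Library 1 held 2547 cells with a median of 8757 UMIs (range 559 to 26890), and library 2 held 14344 cells with a median of 6874 (range 465 to 22450). The table lists genes of high variance. Of these, 3891 complete gene rows were read. They carry 23.6% and 22.6% of the UMIs of the libraries. The libraries share 7 cell barcodes, 0.275% of those of library 1. Cells were not removed as doublets. The Scrublet scores marked 4 and 513 cells by their own threshold, and counts without the cells of highest score are given with the alternatives.

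The members made up 6.12% of library 1 (156 cells, exact 95% interval 5.22 to 7.13%) and 7.31% of library 2 (1049 cells, 6.89 to 7.75%). These intervals cover counting error only. The members were deeper than the rest, and the rule asks for several detected genes. Their median was 12301 UMIs in library 1 and 9667 in library 2, against 8443 and 6659 in all other 10X cells. With 5000 UMIs drawn at random from each cell that had as many, 5.09% of 2003 cells and 6.68% of 10080 cells met the rule. Of the members, 6 (3.85%) and 132 (12.6%) had one of the highest doublet scores, a share close to that of all other cells in library 2 (11.4%) and above it in library 1 (1.92%).

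The genes for the 3 anchors were detected in 250 and 2122 cells. Just inside the threshold were the members with exactly 3 of the 6 genes, 23 and 170 cells, and just outside were 10 and 67 cells with the anchors, 2 of the 6 genes and fewer Slitrk6 side genes. The cells just outside had summed levels of the 6 genes of 5.35 and 6.05 UMIs per 10,000, and those with exactly 3 had 7.71 and 8.48. A further 4 and 74 cells held as many Slitrk6 side genes as Wif1 side genes, and 3 and 43 held more. All 6 genes were found in 57 and 229 members, and none of the Slitrk6 side genes in 80 and 328.

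Levels are mean UMIs per 10,000 UMIs of the cell, averaged over the cells of a set in each library. Levels are compared between cells and not between genes. Wif1 stood at 2.29 in members of library 1 and 2.21 in library 2, against 0.0115 and 0.0353 in all other 10X cells. It was detected in 67.3% and 68.8% of members and in 0.460% and 1.42% of other cells. Wif1 was thus not found in every member, since the rule does not ask for it. Trp53i11 was detected in 93.6% and 88.8% of members, and Col23a1 in 66.0% and 70.3%. Pla1a, a phospholipase of phosphatidylserine, stood at 2.27 and 1.99, and Il34, a ligand of the macrophage growth factor receptor CSF1R, at 2.0 and 1.76.

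Among the anchors, Pdgfra stood at 29.8 and 34.4 in members, against 5.47 and 7.77 in other cells. The transcription factor Sox6 stood at 6.81 and 6.35, and the BMP ligand Bmp7 at 5.02 and 4.70. Of the genes kept low by the rule, Slitrk6 was still detected in 19.2% and 32.2% of members and Spon2 in 10.9% and 31.1%. Both shares were higher in library 2. In other cells Slitrk6 was detected in 10.4% and 15.6%, and Spon2 in 92.9% and 91.0%. In GENCODE M21 on GRCm38, Wif1 spans chr10:121033960-121100650 on the plus strand, Pla1a chr16:38396117-38433145 on the minus strand and Trp53i11 chr2:93187548-93201759 on the plus strand.

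**Figure D1:**
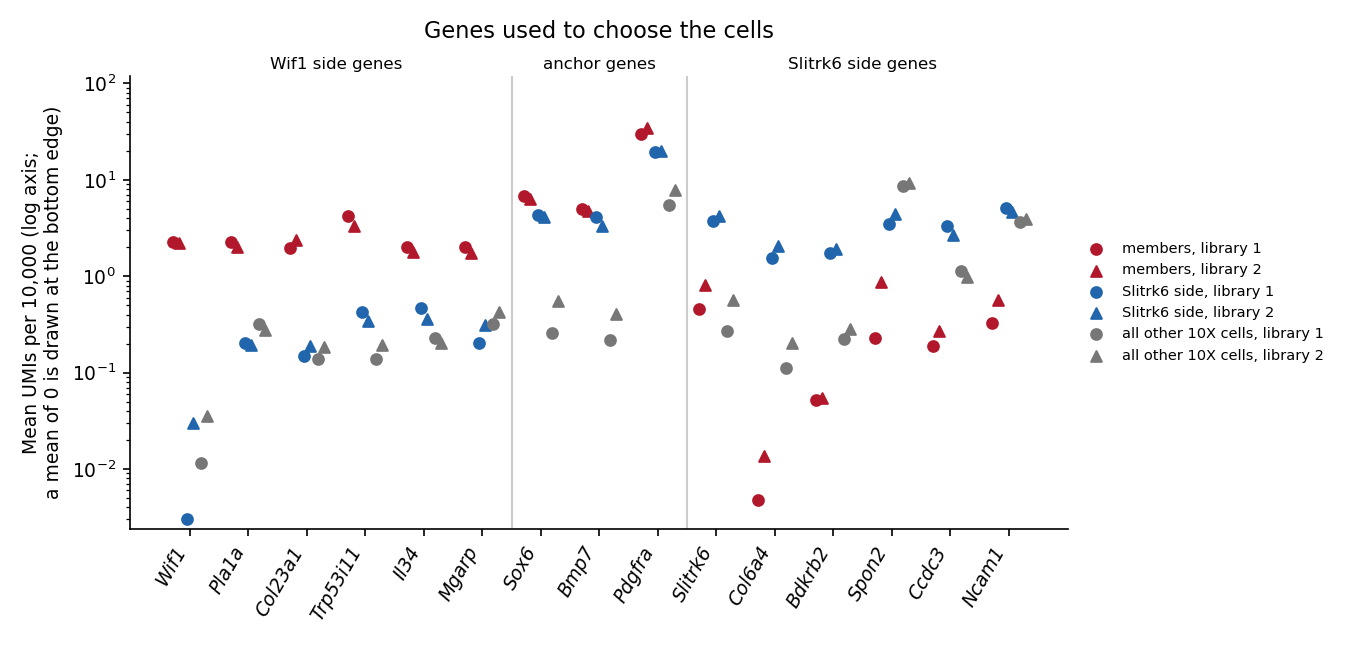
Mean UMIs per 10,000 (log axis) of the 15 genes of the rule in the members (red), the Slitrk6 side cells (blue) and all other 10X cells (grey), with library 1 as circles and library 2 as triangles. The members lie above the other sets for the 6 Wif1 side genes, as the rule requires, with Wif1 at 2.29 and 2.21.

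The labelled tissue and sort were checked against markers that the rule did not use. The subepithelial genes Bmp5, a BMP ligand, and F3, the tissue factor that starts coagulation, were both higher in members than in other cells. The immune marker Ptprc, which encodes CD45, was at 0 in all members, and a count of 0 allows up to 0.0160 UMIs per 10,000 in library 1 and 0.00295 in library 2 (3 counts). The summed level of 5 immune genes was 0.296 and 0.292 in members and 0.451 and 0.616 in other cells, but a UMI of any of them was found in 26.9% and 22.1% of members against 6.57% and 7.40% of other cells. Most of the sum in members was Lyz2, the lysozyme of myeloid cells, which was higher in members, at 0.248 and 0.267 against 0.0714 and 0.0713 (limma adjusted p = 0.000840), and was detected in 23.7% and 20.6% of them against 2.59% and 3.15%. The 5 endothelial genes summed to 0.0386 and 0.0235 against 0.0512 and 0.0785 in other cells, with Cldn5 and Emcn at 0 in members of both libraries, and the 5 epithelial genes to 0.0904 and 0.0681 against 0.0349 and 0.120. The 6 smooth muscle genes summed to 5.70 and 5.07 in members against 1.85 and 2.33 in other cells, and a UMI of any of them was found in 92.3% and 91.5% of members against 37.1% and 41.9%. Most of the sum was Myh11, at 4.24 and 3.79, with Des at 1.40 and 1.16, while Cnn1 was at 0 in library 1 and at 0.0109 in library 2. For the interstitial cells of Cajal, Kit stood at 0.0254 and 0.0157 and Ano1 at 0.00418 and 0.00319 in members, while the third gene of the list, Etv1, stood at 4.13 and 3.73. The part of free RNA or mixed droplets in these low levels was not tested.

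Compared with all other 10X cells of the same library, the members held more RNA of the ligands Bmp3, Bmp5, Inhba and Inhbb, of the receptors Ednra, Aplnr and Hrh1 and of 22 of 24 contractile genes. They held less RNA of Grem1, of the ligand Gdf10, of the complement gene C3 and of 20 of 26 immediate-early and heat shock genes. Of 1723 genes tested, 1089 (63.2%) passed limma at an adjusted p of 0.05, with 538 (31.2%) higher and 551 (32%) lower in members. All 1089 differed in the same direction in both libraries. As most of the tested genes passed, the count of each gene group below is to be read against these shares. The median log2 difference over all tested genes was 0.11, and it ranged from -0.04 to 0.24 under the alternatives.

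**Figure D2:**
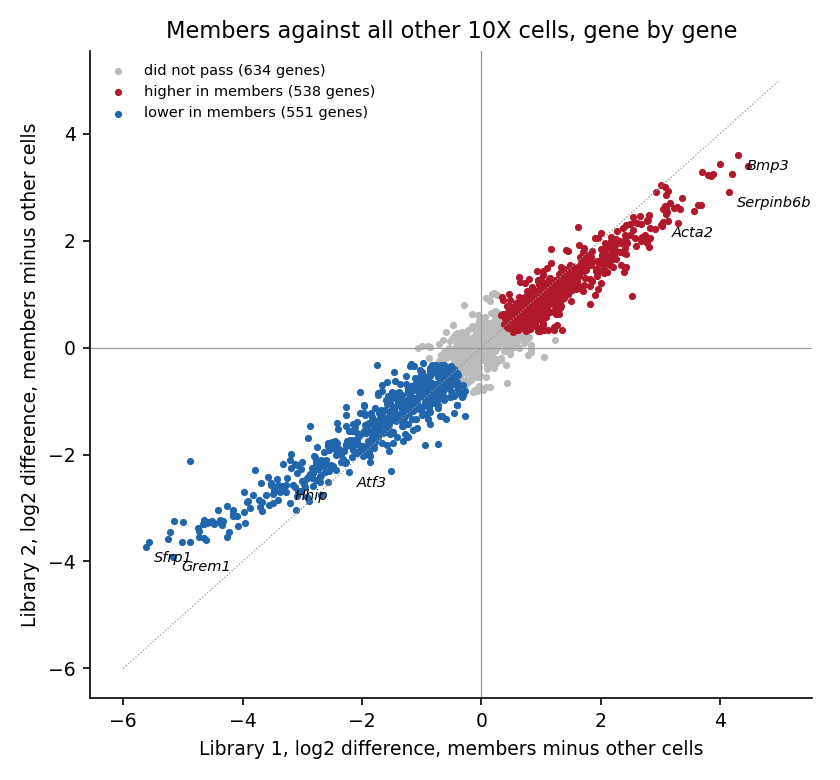
Log2 difference of each tested gene between the members and all other 10X cells in library 1 (horizontal) and library 2 (vertical), coloured by the limma call (538 higher, 551 lower). The dotted line marks equal differences, and the most lowered genes lie above it, with smaller differences in library 2.

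Among ligands of the BMP, activin and TGF-beta families, 5 of 9 tested genes were higher in members and 4 were lower, with a median difference of 0.73. Bmp3, a member of the BMP family, stood at 2.34 and 2.07 in members and at 0.0706 and 0.125 in other cells of libraries 1 and 2, a difference of 3.95 ± 0.50 on the log2 scale (SD, n = 2 libraries, limma adjusted p = 0.000338). Inhbb, the beta B subunit of activin, stood at 2.44 and 2.63 against 0.105 and 0.199, with folds of 23.3 and 13.2. The means of the members were above those of the other cells in both libraries for these ligands. Inhba, the other activin subunit, stood at 1.82 and 1.18 against 0.108 and 0.159, and Bmp5 at 7.70 and 10.0 against 1.07 and 1.87. The genes that were lower were Gdf10, Gdf6 and the TGF-beta ligands Tgfb2 and Tgfb3, with Gdf10 at 0.00672 and 0.0357 against 0.527 and 0.466.

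Antagonists and targets of BMP and activin moved in both directions, with 6 of 12 higher, 5 lower and a median of -0.02. Grem1, the crypt-side BMP antagonist gremlin, stood at 0.171 and 0.272 in members against 7.87 and 4.79 in other cells (log2 difference -4.54 ± 0.89, SD, n = 2 libraries, limma adjusted p = 0.000338). Fst, Chrdl1 and Bmper were lower too. Chrd, which encodes the BMP antagonist chordin, went the other way, at 2.11 and 1.85 against 0.433 and 0.448, and so did Crim1, a membrane protein that binds BMPs, at 3.52 and 3.08 against 0.393 and 0.586. The BMP target genes Id1, Id2 and Id3 were higher, with Id1 at 1.66 and 1.55 against 0.288 and 0.499, and Id4 did not pass (limma adjusted p = 0.0510), at 0.172 and 0.216 against 0.236 and 0.341. Id3 kept its call in 2 of 14 alternatives, and Id4 remained without one in 6 of 13 and was lower in the others. Tgfb3 kept its call in 12 of 14, and Wnt5b, described next, in 11 of 13.

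Of 5 Wnt ligands and R-spondins tested, Wnt5a, Wnt4 and Wnt5b were higher and Rspo1 and Rspo3 lower. Wnt5a, a ligand of the branch of Wnt signalling that does not use beta-catenin, stood at 1.75 and 1.99 against 0.570 and 0.667. Of 9 tested receptors and antagonists, 6 were lower in members, 3 were higher and the median was -1.13. The secreted antagonists Sfrp1 and Frzb were lower, with Sfrp1 at 0.303 and 1.48 against 17.3 and 20.3 (log2 difference -4.68 ± 1.33, SD, n = 2 libraries, limma adjusted p = 0.000459). Library 1 and library 2 differed in how low Sfrp1 was in members, and both lay under the other cells. The receptors Fzd2, Lrp4 and Ror2 were higher, and Lrp4 stood at 1.15 and 1.48 against 0.174 and 0.263. Among Hedgehog response genes, Foxf2, Foxl1 and Ptch1 were higher and Hhip and Gas1 lower. Foxf2, a forkhead factor, stood at 1.90 and 2.24 against 0.538 and 0.732.

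Of 21 vasoactive receptor, enzyme and potassium channel genes tested, 15 were higher in members and 5 lower, and the median difference was 1.39. Kcnj8 and Abcc9, which encode the pore and the regulatory subunit of an ATP-sensitive potassium channel, moved together. Abcc9 stood at 4.72 and 5.25 against 0.272 and 0.511 (log2 difference 3.56 ± 0.46, SD, n = 2 libraries, limma adjusted p = 0.000338), and Kcnj8 at 3.05 and 2.72 against 0.173 and 0.244. Ednra, the endothelin A receptor, stood at 5.09 and 6.60 in members against 0.344 and 0.635, folds of 14.8 and 10.4. Aplnr, the apelin receptor, stood at 1.02 and 0.767 against 0.0243 and 0.0380, and Hrh1, the histamine H1 receptor, at 0.505 and 0.455 against 0.0288 and 0.0402. The means of the members were the higher ones in both libraries, while single cells overlapped, as Aplnr was detected in 51.9% and 44.7% of members and Hrh1 in 38.5% and 31.2%. Among the enzymes of the list, Ece1, the endothelin-converting enzyme, and Ptgis, the prostacyclin synthase, were higher. Agtr1a, Bdkrb1, Ptgs2, Agt and Gucy1a1 were lower, though Gucy1a1 missed the threshold on mean natural log values.

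Contractile and cytoskeletal genes were higher in members for 22 of 24 tested, with a median difference of 1.57. Acta2, smooth muscle actin, stood at 29.3 and 25.5 in members against 3.48 and 4.98 in other cells (log2 difference 2.70 ± 0.50, SD, n = 2 libraries, limma adjusted p = 0.000338). Tagln stood at 24.5 and 21.1 against 2.47 and 3.37, and Myh11, the smooth muscle myosin heavy chain, at 4.24 and 3.79 against 0.659 and 0.972. Hhip, a Hedgehog-binding protein, was the only tested gene of the list that was lower, with no UMI in members of library 1, and Smtn did not pass.

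These levels were set beside smooth muscle of the same libraries. Cells with no Pdgfra UMI and at least 3 of Cnn1, Actg2, Des, Hhip and Lmod1 numbered 16 and 80, and no test was made against them, as the genes chose them. Acta2 stood at 79.3 and 89.0 in these cells and Myh11 at 30.7 and 42.2, above the members in both libraries. Cald1, the actin-binding caldesmon, stood at 26.9 and 21.5 in members and at 14.1 in both libraries of the smooth muscle set. Casq2, the calcium store protein calsequestrin, stood at 1.44 and 2.03 in members and 1.36 and 1.61 in smooth muscle. Of the genes that chose the smooth muscle set, Actg2 stood at 0.0307 and 0.0406 in members against 11.1 and 17.5 and Lmod1 at 0.0348 and 0.0208 against 6.55 and 6.92.

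**Figure D3:**
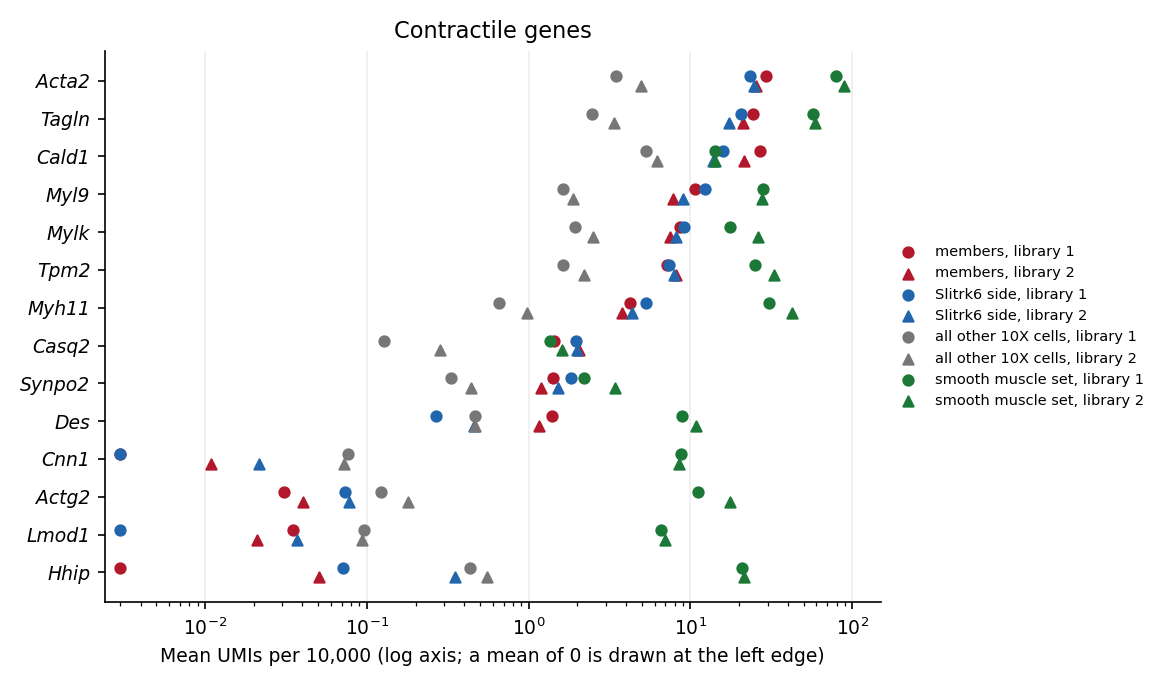
Mean UMIs per 10,000 (log axis) of contractile genes in the members, the Slitrk6 side cells, all other 10X cells and the smooth muscle set, which Des, Cnn1, Actg2, Lmod1 and Hhip helped to choose. Acta2 in the members (29.3 and 25.5) lies between the other cells and the smooth muscle set, and Cnn1 is at 0 and 0.0109.

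Of 10 basement membrane genes 8 were higher, and Smoc1 and Nid1 did not pass. The median was 1.43. The type IV collagen chains Col4a5 and Col4a6 stood at 2.17 and 2.42 against 0.311 and 0.445, and at 0.732 and 0.725 against 0.101 and 0.114. Smoc2, a calcium-binding matrix protein, stood at 6.74 and 4.64 against 1.38 and 1.43. Of 13 interstitial collagen genes 5 were higher and 6 lower. Col12a1 stood at 9.36 and 9.04 against 1.1 and 1.79, while Col14a1, of the same fibril-associated class, stood at 1.47 and 1.96 against 11 and 10.3. Of 16 elastic fibre genes 7 were higher and 6 lower. Fbn2 was higher, at 2.47 and 2.42 against 0.0864 and 0.211, and Fbln1 and Mfap5 were lower, with Fbln1 at 0.432 and 1.78 against 22.9 and 22.6. Of 16 matricellular and adhesive matrix genes 6 were higher and 9 were lower, with a median of -0.67. Postn, which encodes periostin, was lower, at 0.0473 and 0.162 against 2.39 and 2.45.

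Cytokine and chemokine genes, a list that includes receptors, moved in both directions. Of 20 genes tested 11 were lower, 6 were higher and 3 did not pass, and the median was -1.05. Il6 stood at 0.0473 and 0.208 in members against 2.33 and 3.08 in other cells, and Ccl2 at 0.294 and 0.513 against 2.37 and 2.81. Cxcl14 went the other way, at 3.85 and 2.30 against 0.696 and 0.636. Among the 10 genes of largest lower difference were the complement genes C3 and C4b. C3 stood at 0.628 and 2.07 against 25.0 and 23.2 (log2 difference -4.33 ± 1.24, SD, n = 2 libraries, limma adjusted p = 0.000465). C4b has a near-identical neighbour that can share its reads, so its value is less certain. Other genes of largest difference were Tspan13, a tetraspanin, Serpinb6b, a protease inhibitor with close paralogs, and Alcam, an adhesion molecule, on the higher side, and Spon1, Col8a1 and Hsd11b1 on the lower side.

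Of 28 transcription factor genes 15 were higher and 8 lower, with a median of 0.92. Tbx4, a T-box factor, stood at 0.412 and 0.487 against 0.0220 and 0.0586, and Etv1, an ETS factor, at 4.13 and 3.73 against 0.568 and 0.891. Foxp2, Pitx1 and Klf4 were among the lower ones. Of 13 sterol synthesis genes 9 were higher and 4 did not pass, with Sqle, the squalene epoxidase, at 0.543 and 1.18 against 0.166 and 0.303. Of 8 retinoid genes 4 were higher and 4 lower. Aldh1a1, which makes retinoic acid, stood at 13.6 and 11.7 against 2.26 and 2.24, and Aldh1a3, of the same enzyme family, at 0.272 and 0.892 against 1.94 and 3.59. Cell cycle genes were scarce, and only Ccnb2 and Stmn1 of the mitosis list reached the filter. Ccnb2 stood at 0.322 and 0.251 against 0.0390 and 0.0423, and Stmn1 at 0.0296 and 0.0467 against 0.132 and 0.110.

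Of 13 integrin and adhesion genes 8 were higher and 3 lower (Vcam1, Icam1 and Cdh13), with a median of 1.44. Vcam1 stood at 0.506 and 0.937 against 1.29 and 1.54, and the gap junction gene Gja1 stood at 4.50 and 4.27 against 0.592 and 0.865. Of 18 angiogenic and coagulation genes 8 were higher and 6 lower, with a median of 0.00. Vegfa stood at 1.29 and 1.61 against 0.701 and 0.867, and Thbd, the thrombin receptor thrombomodulin, at 8.26 and 9.73 against 2.38 and 2.99. Of 20 growth factor genes 6 were higher and 8 lower, and Fgf9 stood at 0.813 and 1.02 against 0.0974 and 0.185.

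Of 26 immediate-early and heat shock genes 20 were lower in members and 6 did not pass, with a median of -0.92. Atf3 stood at 0.892 and 0.706 against 4.33 and 3.75, and Egr1 at 10.9 and 13.3 against 36.2 and 38.5. Many of these genes are known to be induced by tissue digestion, and the part of cell handling was not tested. The lowered genes were less low in library 2. Of the 551 lowered genes 398 had a higher level in members of library 2 than in those of library 1, while 237 of the same 551 did so in the other cells. The 20 most abundant lowered genes summed to 181.6 UMIs per 10,000 in members and 553.4 in other cells of library 1, or 32.8%, and to 199.6 and 524.8 in library 2, or 38.0%. The part of free RNA in these values was not tested.

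The members were next compared with the Slitrk6 side, chosen by the mirror of the rule: the same anchors, at least 3 of the Slitrk6 side genes, and more of these than of the Wif1 side genes. It held 69 and 774 cells with medians of 10493 and 8146 UMIs. Of these cells, 3 (4.35%) and 162 (20.9%) had one of the highest doublet scores, in library 2 a larger share than the 12.6% of members. Compared with it, the members held more Smoc2, Chrd, Fzd2 and receptors such as Ednra and Aplnr, and less Ednrb, Wnt4, Tnc and Postn. Of 1657 genes 336 (20.3%) passed, 164 (9.9%) higher and 172 (10.4%) lower in members, all in the same direction in both libraries. The median difference of all tested genes was 0.03. The comparison rests on 69 cells in library 1. The count was 160 when the libraries were not paired in the fit and 196 for members with none of the Slitrk6 side genes. Among the genes named below in this comparison, Palld, Cnn2, Cald1, Actn4, Hhip, Pdlim3, Inhba, Fst, Id1, Id2, Wnt5a, Npr3, Ptgs2, Gucy1a1, Ptgs1, Col6a5, Lrat, Aldh1a1, Vegfa, Cxcl13, Igfbp5 and Itih5 missed the threshold in at least 1 alternative.

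Both sides carried Acta2, Tagln, Myl9 and Cald1, while Cnn1, Lmod1 and Actg2 were scarce on both, with Actg2 at 0.0307 and 0.0406 against 0.0731 and 0.0775. Acta2 stood at 29.3 and 25.5 in members and at 23.4 and 24.5 in the Slitrk6 side, with a log2 difference of 0.19 ± 0.19 (limma adjusted p = 0.308, SD over n = 2 libraries), and 16 of 24 genes of the list did not pass. Des, the intermediate filament desmin, was higher in members, at 1.40 and 1.16 against 0.269 and 0.457 (limma adjusted p = 0.0116). Palld, Cnn2, Cald1 and Actn4 were higher too, and Hhip, Pdlim1 and Pdlim3 lower. Of 13 sterol synthesis genes 0 passed limma, with 1 at an unadjusted p under 0.05. Of 25 immediate-early and heat shock genes 3 were higher (Btg2, Dusp1 and Fosl2) and 1, Hspb1, lower, while 13 had an unadjusted p under 0.05 and the median was 0.66, above the 0.03 of all tested genes. Fos, which did not pass, stood at 12.4 and 11.3 in members against 3.1 and 7.74 (limma adjusted p = 0.0568), and it remained without a call in 6 of 13 alternatives and was higher in the others. The 3 higher calls were each lost in at least 1 alternative, and the part of cell handling was not tested. No test of the difference between these comparisons was made.

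Among ligands, Bmp3 was higher in members, at 2.34 and 2.07 against 0.830 and 0.714 (log2 difference 1.46 ± 0.02, SD, n = 2 libraries, limma adjusted p = 0.00414). Inhbb and Inhba were higher as well, and the other 5 of 8 tested ligands did not pass. Inhba kept its call in 8 of 13 alternatives (limma adjusted p 0.0244 to 0.324, the highest without the replicate block). Chrd stood at 2.11 and 1.85 against 0.473 and 0.445, folds of 4.46 and 4.17. Crim1 was higher, while Fst, Id1 and Id2 were lower in members. Wnt4 stood at 1.72 and 2.30 against 5.47 and 5.29 (log2 difference -1.41 ± 0.32, SD, n = 2 libraries, limma adjusted p = 0.00516). Wnt5a was lower in members too, at 1.75 and 1.99 against 2.70 and 2.93. Fzd2, a Wnt receptor, stood at 6.94 and 7.21 against 2.01 and 2.28, higher in both libraries. Of 6 Hedgehog response genes 4 were lower in members, and Gas1 and Foxf2 did not pass. Ptch1, the Hedgehog receptor and a target of the pathway, stood at 4.22 and 4.42 against 10.4 and 9.66, and Foxl1, a forkhead factor of subepithelial cells, at 0.253 and 0.323 against 0.718 and 0.896. The median difference of the Hedgehog list was -1.27.

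The endothelin receptors divided the sides. Ednra stood at 5.09 and 6.60 in members and at 2.02 and 2.75 in the Slitrk6 side, while Ednrb, the endothelin B receptor, stood at 1.91 and 3.1 against 19.4 and 18. The log2 difference was 1.28 ± 0.05 for Ednra and -2.91 ± 0.56 for Ednrb (SD, n = 2 libraries, limma adjusted p = 0.00406 and 0.00296). Ednrb was nonetheless higher in members than in all other cells together, at 0.818 and 1.72, a call that was lost without the replicate block (adjusted p = 0.0852, range over the alternatives 0.00149 to 0.0852). Aplnr, Ramp1, Hrh1, Abcc9, Kcnj8 and Ptgis were higher in members than in the Slitrk6 side, with Aplnr at 1.02 and 0.767 against 0.102 and 0.190 and Ramp1, an accessory protein of the CGRP receptor, at 2.46 and 2.07 against 0.977 and 0.715. Agt, which encodes angiotensinogen, was lower, at 0.119 and 0.226 against 2.68 and 1.94, as were Npr3, Ptgs2, Gucy1a1 and Ptgs1.

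In the matrix, Smoc2 and Smoc1 lay on opposite sides. Smoc2 stood at 6.74 and 4.64 against 0.711 and 0.725 (log2 difference 2.88 ± 0.39, SD, n = 2 libraries, limma adjusted p = 0.00292), and Smoc1 at 0.0892 and 0.0966 against 1.21 and 0.613. The laminin chain Lama5 had no UMI in members of library 1 and stood at 0.0126 in library 2, against 0.885 and 0.499. Npnt, which encodes nephronectin, stood at 0.00934 and 0.0224 against 0.205 and 0.916. Postn stood at 0.0473 and 0.162 against 2.67 and 2.94, and Sparcl1 at 0.0517 and 0.177 against 1.96 and 1.92. Tnc, which encodes tenascin C, was present on both sides, at 9.53 and 10.0 against 18.8 and 17.6. Fbn2 and Col6a5 were higher in members, with Col6a5 at 5.94 and 7.06 against 1.34 and 2.89, and the fibrillar Col3a1 was lower, at 20.1 and 23.6 against 52.5 and 47.8. Of 12 basement membrane genes 7 did not pass: Col4a5, Col4a6, Lamb1, Col18a1, Lama4, Nid2 and Nid1. Col4a5 stood at 2.17 and 2.42 against 2.43 and 2.33. Col12a1 did not pass either, at 9.36 and 9.04 against 7.58 and 7.17.

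Of 16 growth factor genes 2 were higher in members, 4 were lower and 10 did not pass. Nrg1, the neuregulin ligand of the ERBB receptors, stood at 0.0828 and 0.127 against 0.835 and 1.06, and Ntf3, neurotrophin 3, at 0.0962 and 0.203 against 0.982 and 1.16. Igf1 was higher in members, at 3.78 and 4.46 against 1.1 and 1.67. Fgf9, at 0.813 and 1.02 against 1.43 and 1.32, did not pass, and nor did Thbd, at 8.26 and 9.73 against 10.5 and 9.10. Of 8 retinoid genes 5 were lower in members and 1, Aldh1a1, was higher. Lrat, which makes retinyl esters, stood at 2.37 and 1.67 against 7.68 and 4.31. Vegfa was lower, at 1.29 and 1.61 against 2.24 and 2.65 (log2 difference -0.74 ± 0.05, SD, n = 2 libraries, limma adjusted p = 0.0192), and F3 did not pass, at 1.48 and 1.51 against 2.01 and 1.77. Vegfa kept its call in 10 of 13 alternatives (limma adjusted p 0.00735 to 0.097, the highest without the replicate block). Of 19 cytokine and chemokine genes 6 were higher and 1, Cxcl13, lower, with Cxcl14 at 3.85 and 2.30 against 1.20 and 0.878. Among the transcription factors, Meox1 was detected in members, at 0.272 and 0.181, with no UMI in the Slitrk6 side of library 1 and 0.00320 in library 2, and Msc was lower, at 0.0684 and 0.116 against 1.01 and 0.799.

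Genes of largest difference outside the lists were C7, Masp1, Ppp1r14c, Kcnab1 and Itih5 on the higher side and Kcnk3, Adamts18, Tes and Mmp10 on the lower. C7, a late complement component, stood at 1.15 and 1.22 against 0.0142 and 0.178, and Masp1, a protease of the lectin complement pathway, at 0.799 and 0.762 against 0.0637 and 0.132. Igfbp5, which binds insulin-like growth factors, had the largest difference and the least even one, at 23.3 and 10.7 in members against 0.0354 and 2.18 (log2 difference 5.18 ± 4.12, SD, n = 2 libraries, limma adjusted p = 0.0478). It kept its call in 7 of 13 alternatives (adjusted p 0.00677 to 0.118), and against all other cells, at 11.2 and 12.0, its sign differed between the libraries and it did not pass (limma adjusted p = 0.232).

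**Figure D4:**
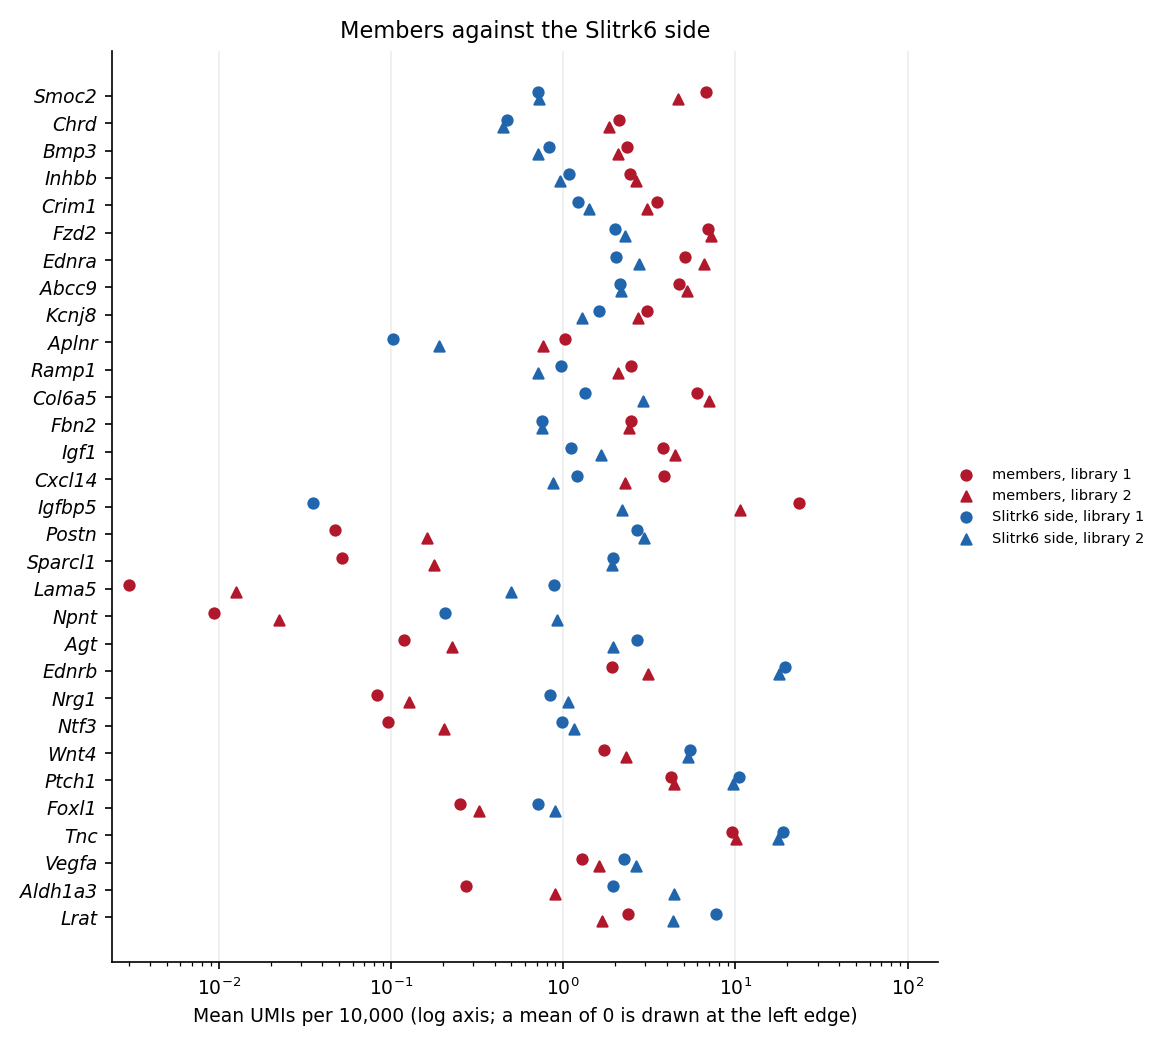
Mean UMIs per 10,000 (log axis) of genes named for the comparison of the members (red) with the Slitrk6 side (blue), in library 1 (circles) and library 2 (triangles). Genes from Smoc2 to Igfbp5 lie higher in members in both libraries and those from Postn to Lrat lower, with Ednrb at 1.91 and 3.1 against 19.4 and 18.

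Members with and without Wif1 are given as a description, since Wif1 is a gene of the rule and members without it had to hold 3 of the other 5. Cells with a Wif1 UMI numbered 105 and 722 and those without 51 and 327, at close median depths (12300 and 9992.5 against 12302 and 9213 UMIs). Of 1599 genes 8 (0.5%) were past the threshold used above, a count that ran from 0 to 110 over the alternatives and from which nothing is read. Igfbp5 stood at 32.4 and 13.9 in cells with a Wif1 UMI and at 4.40 and 3.56 in those without (log2 difference 2.41 ± 0.65, SD, n = 2 libraries). Cxcl14 stood at 4.78 and 2.71 against 1.93 and 1.39, so both had the higher mean with Wif1 in each library. Slc6a6, a taurine transporter, stood at 0.415 and 0.433 against 1.16 and 1.15 and Aldh1a3 at 0.181 and 0.592 against 0.458 and 1.55. Smoc2 stood at 7.64 and 5.12 against 4.87 and 3.60, and Ednrb at 1.47 and 2.69 against 2.82 and 4.0. In the Slitrk6 side Slc6a6, Aldh1a3 and Ednrb stood higher still, with Slc6a6 at 4.28 and 2.69, and Igfbp5, Cxcl14 and Smoc2 lower still. Whether members without Wif1 lie nearer to that side was not tested.

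Members also varied with the number of Wif1 side genes detected, which is given as a description. From 3 to 6 of these genes, Igfbp5 stood at 6.95, 19.3, 21.4 and 33.7 in library 1 and at 4.14, 5.36, 14.3 and 16.3 in library 2. Ednrb stood at 2.15, 2.5, 1.96 and 1.42 in library 1 and at 3.83, 3.43, 2.93 and 2.42 in library 2. Igfbp5 was thus highest in cells with all 6 genes in both libraries, and Ednrb lowest. Depth moved with this number, as cells with 3 genes had medians of 12215 and 8020 UMIs and cells with 6 had 13214 and 10734. The summed level of the Slitrk6 side genes moved too, at 3.11 and 3.41 UMIs per 10,000 with 3 genes and 0.508 and 1.66 with 6. The part of depth or of nearness to the Slitrk6 side in these levels was not tested.

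**Figure D5:**
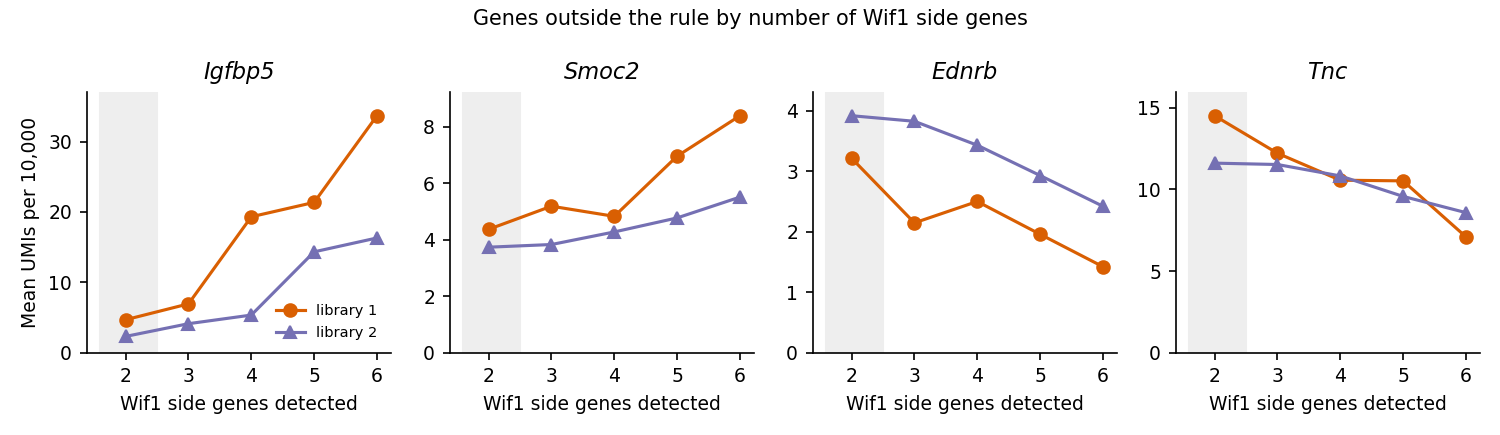
Mean UMIs per 10,000 of Igfbp5, Smoc2, Ednrb and Tnc by the number of the 6 Wif1 side genes detected, for library 1 (circles) and library 2 (triangles), with the cells just outside the rule on grey. Igfbp5 reaches 33.7 and 16.3 in cells with all 6 genes, and Ednrb stands at 1.42 and 2.42 there.

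Cells with the anchors on neither side numbered 25 and 299, with medians of 7586 and 6988 UMIs. Cells that met the Wif1 side part of the rule but lacked an anchor numbered 30 and 218, or 19.2% and 20.8% of the number of members.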

How the data were processed

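Cells of 4 libraries were profiled, and the 2 10X libraries were used. According to the submitters' processing notes and the study's methods, reads were counted with Cell Ranger 3.1.0 on GRCm38. The authors deposited natural log values, the log of 1 plus the UMIs scaled to 10000 per cell, for genes of high variance. The 739 Smartseq2 columns, corrected by the authors onto the 10X values, were not used. The table as read ended inside 1 gene row, which was left out, and any genes beyond it were not analysed. In 100% of values a whole number of UMIs was recovered (tolerance 0.01).

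Members and gene lists were chosen with earlier results of these data known. Mean UMIs per 10,000 were taken per set and library, and log2(mean + 0.05) was fitted with limma 3.58.1 (R 4.3.3, mean trend, library as block) with Benjamini-Hochberg adjustment. Fold changes on this scale understate the change of low genes. Genes detected in at least 5% of the cells of either set were tested, without the 15 genes of the rule. Folds are ratios of the mean levels and are not given where a set held 3 UMIs or fewer. The fit was also run on simulated data with a number of changed genes and a library spread set beforehand. That run gives no error rate for the calls here. The genes named are the 10 of largest difference per direction with a mean of at least 0.5 in the higher set, up to 4 per list, genes the study names for its subepithelial cells and genes of the 20 lists that show the pattern of their list, the last chosen after their values were seen. Doublet scores came from Scrublet in Scanpy 1.11.5. Intervals are exact Clopper-Pearson 95% intervals. Alternatives changed the pseudocount, filter, scale, block, trend, depth range, doublets, the number of genes required and the comparison cells. A few genes that meet the naming rule are not reported here.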

Additional observations from a re-analysis of the deposited data

How the results depend on the processing

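Against all other 10X cells the count of 1089 genes stayed between 989 and 1137 where the same filter was kept, was 1336 of 3794 with no filter and 712 of 970 with genes detected in at least 20% of either set. The split of higher and lower genes was 538 and 551, 666 and 464 with mean natural log values, 474 and 862 with no filter, and 405 and 307 at 20%. Of the 126 genes followed for it, all but Igfbp5 kept their direction under these alternatives; Igfbp5, which did not pass, was reversed at -0.14 with mean natural log values. Against the Slitrk6 side the count of 336 was 160 without the replicate block, 214 with summed UMIs over summed totals and 196 for members with none of the Slitrk6 side genes (the last 2 chosen after seeing the data), and between 250 and 468 elsewhere. Its split was 164 and 172, and 202 and 153 with mean natural log values. The 97 genes followed kept their direction, and 37 of them missed the threshold without the replicate block. Between members with and without Wif1, a split on a gene of the rule, the count of 8 was 0 with a pseudocount of 0.01, 0 with no replicate block, 0 with no mean trend, 45 with a pseudocount of 0.5, 48 with no filter, 79 at 20%, 76 in cells of 6000 to 14000 UMIs, 19 without the highest doublet scores and 110 with summed UMIs. At an unadjusted p under 0.05 the counts of 0 stood beside 152, 71 and 144 genes. The cause of these shifts was not tested. Each library left out in turn leaves 1 library and no test. Without the cells of highest doublet score the counts were 1137 against all other 10X cells, 468 against the Slitrk6 side and 19 for Wif1, and the shares that met the rule 6.01% and 7.22%. The block is the library that both sets of cells come from.

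The share of cells that met the rule was 5.22% and 6.13% with at least 4 of the genes, 6.52% and 7.78% with at least 2, 5.09% and 6.68% after thinning to 5000 UMIs, and 6.97% and 10.8% in cells of 6000 to 14000 UMIs. In library 1 only 69 cells formed the Slitrk6 side, so a count of 0 there allows up to 0.0414 UMIs per 10,000.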
